A study of Homo sapiens with 6 samples.

Results

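Aminoacyl-tRNA synthetases were followed at the RNA level in Kasumi-1, an established line of human leukemic myeloblasts in which the AML1-ETO fusion is expressed. The 36 genes were chosen by symbol, from a list of 20 cytosolic and 16 mitochondrial enzymes (symbols that end in 2), among the 62016 genes of each table. The cells had carried a lentiviral hairpin for 4 days: JMJD1C shRNA63, JMJD1C shRNA95 or a control shRNA, with 2 libraries per group. JMJD1C belongs to the KDM3 proteins, which carry a JmjC domain, and the comparisons asked what its depletion did to gene expression. All groups are the same line, infected with pLKO virus made in 293T cells. A further table compared Kasumi-1 cells with an AML1-ETO shRNA and cells with its own control shRNA, 1 library each, taken from another published series.

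An aminoacyl-tRNA synthetase joins an amino acid to its tRNA, so that the ribosome can read a codon as that amino acid. Human cells translate messages in the cytosol and in mitochondria, and most amino acids have a separate nuclear gene for the enzyme of each compartment. GARS and KARS are exceptions, since each of these genes makes both the cytosolic and the mitochondrial enzyme, and EPRS joins glutamate and proline to their tRNAs with a single protein. Several cytosolic enzymes sit together in the multisynthetase complex. Genes of many cytosolic synthetases are known targets of ATF4, the transcription factor of the amino acid response, which also drives genes of serine synthesis and amino acid uptake.

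The authors combined the 2 libraries of a group into 1 FPKM value (fragments scaled to transcript length and library size), so no value per library, no SD and no test across libraries can be given. The depth of the libraries is unknown. A gene is called changed where the authors' q-value, which is adjusted over all genes they tested, is under 0.05. Errors of log2 fold changes are the fold change divided by the authors' test statistic. The targeted transcript, JMJD1C, stood at 13.7 FPKM with shRNA63 against 30.4 FPKM in controls, which is 45.1% of control, and was called lower in the authors' deposited table (q = 0.00214). With the hairpin labelled shRNA95 its level was 25.1 FPKM against 29.4 FPKM in controls, or 85.3% of control, without a call, so every direction given for shRNA95 rests on the label. Of the myeloblast markers, ELANE, PRTN3, AZU1, KIT, CD34 and CD33 were measured at 19.2 to 8181 FPKM over all groups, while MPO was listed without a value. The lymphoid, erythroid and platelet markers MS4A1, HBB and PF4 were listed at 0 in every group, and EPCAM, an epithelial marker, stood at 13.9 to 16.3 FPKM while KRT19 stood at or near 0. Several myeloblast markers were themselves called, in both directions. ELANE was higher with shRNA63, at 3744 FPKM against 1143 FPKM in controls, and KIT was lower, at 133.8 FPKM against 245.2 FPKM in controls. CD34 was called higher with shRNA95, at 248.97 FPKM against 146.1 FPKM in controls, and stood at 103.2 FPKM with shRNA63 against 150.7 FPKM in controls, without a call. The part of these markers in the results on the synthetases was not tested.

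All 36 synthetase mRNAs were detected and tested in every table. Cytosolic enzymes were far more abundant than mitochondrial ones, as the plot of levels shows. In the shRNA63 table the 20 cytosolic genes had a median of 109.4 FPKM with shRNA63 and 144.6 FPKM in controls, and the 16 mitochondrial genes 18.7 FPKM with shRNA63 and 18.2 FPKM in controls. MARS, the methionine enzyme, was the most abundant synthetase mRNA in controls at 331.9 FPKM, followed by QARS for glutamine at 277.7 FPKM and IARS for isoleucine at 271.4 FPKM. CARS, the cysteine enzyme, was the least abundant cytosolic one at 27.5 FPKM in the same controls. Mitochondrial levels in these controls ran from 4.03 FPKM for PARS2, the proline enzyme, to 63.9 FPKM for IARS2, the isoleucine enzyme. Of 17 pairings of a cytosolic with a mitochondrial enzyme for the same amino acid, the cytosolic mRNA had the higher level in 16, by 5.23-fold at the median in the shRNA63 table's controls. The exception was cysteine, where CARS stood at 0.485 times the level of CARS2. CARS2 shares its locus with another gene of at least 1 FPKM and CARS does not, so the CARS2 level can include reads of that gene. FPKM is scaled to transcript length, so levels can be set side by side between genes, as far as the length of the transcripts used was right.

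**Figure D1:**
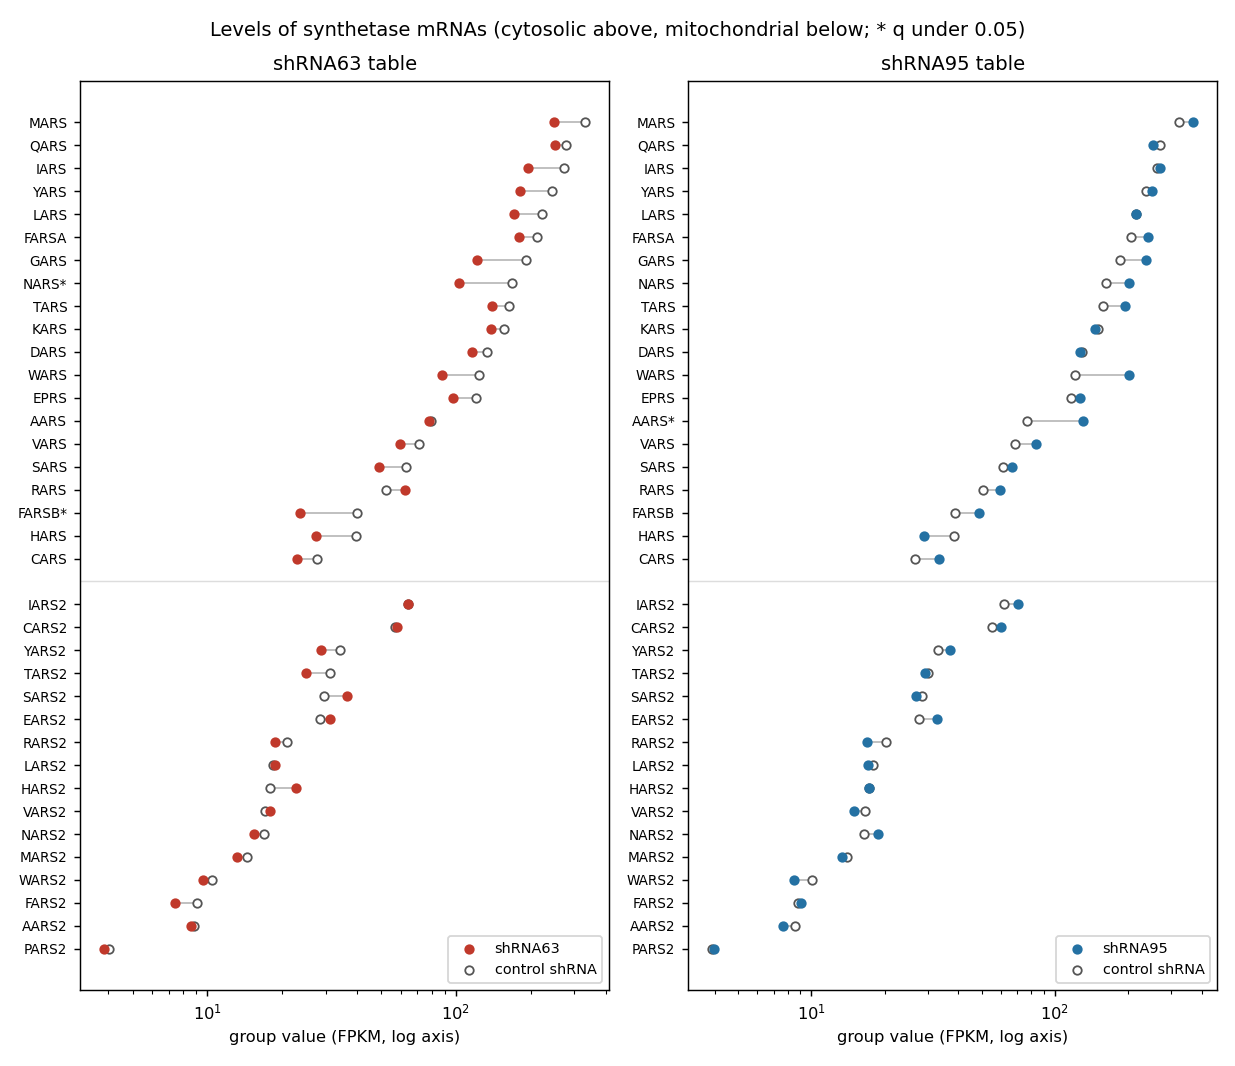
FPKM of each group on a log axis for the 20 cytosolic synthetase genes (upper rows) and the 16 mitochondrial ones (lower rows), filled for the JMJD1C hairpin and open for the control shRNA of the same table. With shRNA63 the filled points lie left of the open ones for 19 of 20 cytosolic genes, and with shRNA95 they lie right of them for 16 of 20.

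With shRNA63, FARSB and NARS fell, and no synthetase was called higher. FARSB, the beta subunit of cytosolic phenylalanyl-tRNA synthetase (ENSG00000116120, chromosome 2 from 223435255 to 223521056 in hg19), stood at 23.5 FPKM with shRNA63 against 40.1 FPKM in controls, which is 58.5% of control. In the authors' deposited table its log2 fold change was -0.77 (error 0.26, 95% interval -1.28 to -0.27, q = 0.00214). NARS, the asparagine enzyme (ENSG00000134440, chromosome 18 from 55267888 to 55289445), stood at 102.5 FPKM with shRNA63 against 167.9 FPKM in controls, or 61.0% of control. The authors' deposited table gave it a log2 fold change of -0.71 (error 0.32, 95% interval -1.34 to -0.08, q = 0.0394). No other gene was listed at the locus of either. These 2 calls are 5.56% of the 36 synthetases, where 5.12% of all tested genes were called in either direction and 2.83% were called lower, so the share of called members is near the background. At an unadjusted p under 0.05 the same count was 2 of 36, against 13.4% of all tested genes.

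The cytosolic enzymes as a list lay below control with shRNA63. Of the 20 cytosolic genes, 19 had log2 ratios of FPKM + 1 below 0, against 48.9% of the 14475 genes measured (tested, and at least 1 FPKM in the higher group). The median was -0.33 for the cytosolic genes and 0.0087 for all measured genes. Abundant genes as a whole lay slightly lower: the 4417 genes with control levels in the range of the cytosolic synthetases had a median of -0.05, with 56.8% below 0. RARS, the arginine enzyme, was the exception at 62.2 FPKM with shRNA63 against 52.4 FPKM in controls. AARS, the alanine enzyme, was at 78.3 FPKM with shRNA63 against 79.2 FPKM in controls, and QARS at 249.7 FPKM against 277.7 FPKM in controls. GARS, the glycine enzyme, had the lowest ratio after FARSB and NARS, with 121.7 FPKM with shRNA63 against 190.6 FPKM in controls. Its error was wide, and the authors' deposited table did not call it, with a log2 fold change of -0.65 (error 0.49, q = 0.391). For 18 of the 20 cytosolic genes the 95% interval held 0, so most were not separable from no change one by one. The counts and medians of a list are a description, with no test.

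Mitochondrial synthetases lay closer to 0. Their median log2 ratio with shRNA63 was -0.05, with 9 of 16 below 0 and none called. The lowest were TARS2 for threonine, at 24.8 FPKM with shRNA63 against 31.1 FPKM in controls, FARS2 for phenylalanine, at 7.38 FPKM against 9.05 FPKM in controls, and YARS2 for tyrosine, at 28.7 FPKM against 34.0 FPKM in controls. The highest were HARS2 for histidine, at 22.6 FPKM with shRNA63 against 17.9 FPKM in controls, SARS2 for serine, at 36.3 FPKM against 29.4 FPKM in controls, and EARS2 for glutamate, at 31.0 FPKM against 28.5 FPKM in controls. The 95% interval held 0 for all 16. Mitochondrial genes also had the wider errors, 0.39 at the median against 0.32 for the cytosolic genes in the authors' deposited table, so a shift as small as the cytosolic one would be harder to see in any 1 of them.

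**Figure D2:**
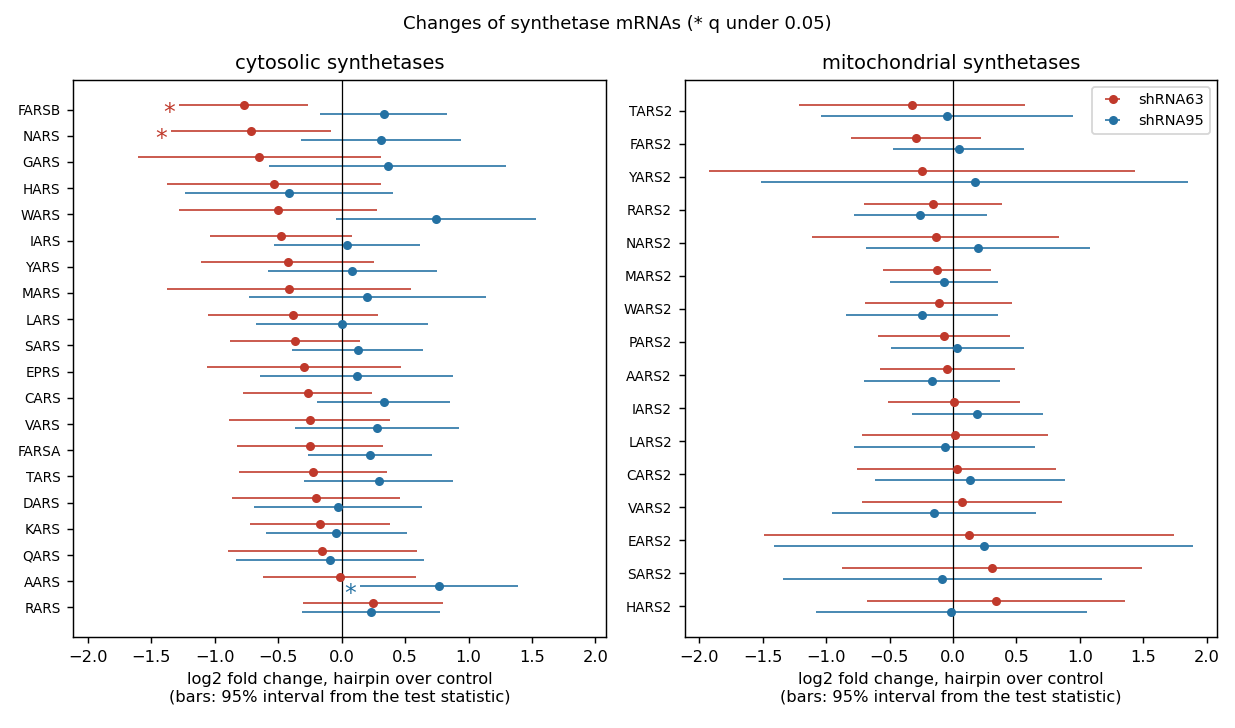
Log2 fold changes of the authors' deposited tables for each synthetase gene, hairpin over control, with 95% intervals derived from the test statistic, for shRNA63 and shRNA95. FARSB and NARS with shRNA63 lie below 0 and AARS with shRNA95 lies above 0 with their whole intervals, and all other intervals hold 0.

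In the libraries labelled shRNA95, AARS rose and the cytosolic enzymes lay mostly on the other side of 0. AARS (ENSG00000090861, chromosome 16 from 70286293 to 70323446 in hg19) stood at 130.7 FPKM with shRNA95 against 76.8 FPKM in controls, or 170.3% of control. Unlike FARSB and NARS, AARS shares its locus with 2 other genes of at least 1 FPKM, so its values can include their reads. The authors' deposited table gave it a log2 fold change of 0.77 (error 0.32, 95% interval 0.15 to 1.39, q = 0.0211). It was the only call among the 36 synthetases, or 2.78% of them, where 4.4% of all tested genes were called and 2.59% were called higher. WARS, the tryptophan enzyme, which interferon gamma is known to induce, stood close to it at 201.9 FPKM with shRNA95 against 120.6 FPKM in controls, or 167.5% of control. It was not called in the authors' deposited table, with a log2 fold change of 0.74 (error 0.40, 95% interval -0.04 to 1.53, q = 0.125). The authors' unadjusted p-value for WARS, 0.00805, implies a narrower error of 0.28, so this interval is wider than that p-value would give. The same held for the called genes. Their p-values imply errors of 0.19 for FARSB and 0.23 for NARS with shRNA63, and 0.23 for AARS with shRNA95. With WARS the count at an unadjusted p under 0.05 was 2 of 36, against 12.3% of all tested genes.

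The median log2 ratio of the 20 cytosolic genes with shRNA95 was 0.21, with 16 above 0, where all 14391 measured genes had a median of 0.03 with 54.0% above 0. Genes in the same range of control levels had a median of 0.06, with 57.6% above 0. GARS stood at 237.4 FPKM with shRNA95 against 184.7 FPKM in controls, and FARSB and NARS, which had fallen with shRNA63, stood at 48.9 FPKM against 38.9 FPKM in controls and at 201.5 FPKM against 162.6 FPKM in controls. HARS, the histidine enzyme, had the lowest ratio at 28.9 FPKM with shRNA95 against 38.5 FPKM in controls, and it was also low with shRNA63, at 27.4 FPKM against 39.7 FPKM in controls, without a call in either table. HARS and HARS2 lie at the same locus in the tables (chromosome 5 from 140044261 to 140078889), and no source used here says whether strand was counted, so reads of the 2 genes cannot be told apart where they overlap. QARS and KARS, the lysine enzyme, were the next lowest, at 252.5 FPKM with shRNA95 against 269.2 FPKM in controls and at 146.6 FPKM against 150.8 FPKM in controls.

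The mitochondrial enzymes with shRNA95 had a median of -0.03, with 7 of 16 above 0 and none called. RARS2 for arginine, WARS2 for tryptophan and AARS2 for alanine were lowest, at 16.9, 8.505 and 7.67 FPKM with shRNA95 against 20.2, 10.1 and 8.59 FPKM in controls. EARS2, IARS2 and NARS2, the mitochondrial asparagine enzyme, were highest, at 32.7, 70.8 and 18.85 FPKM with shRNA95 against 27.6, 62.0 and 16.4 FPKM in controls.

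**Figure D3:**
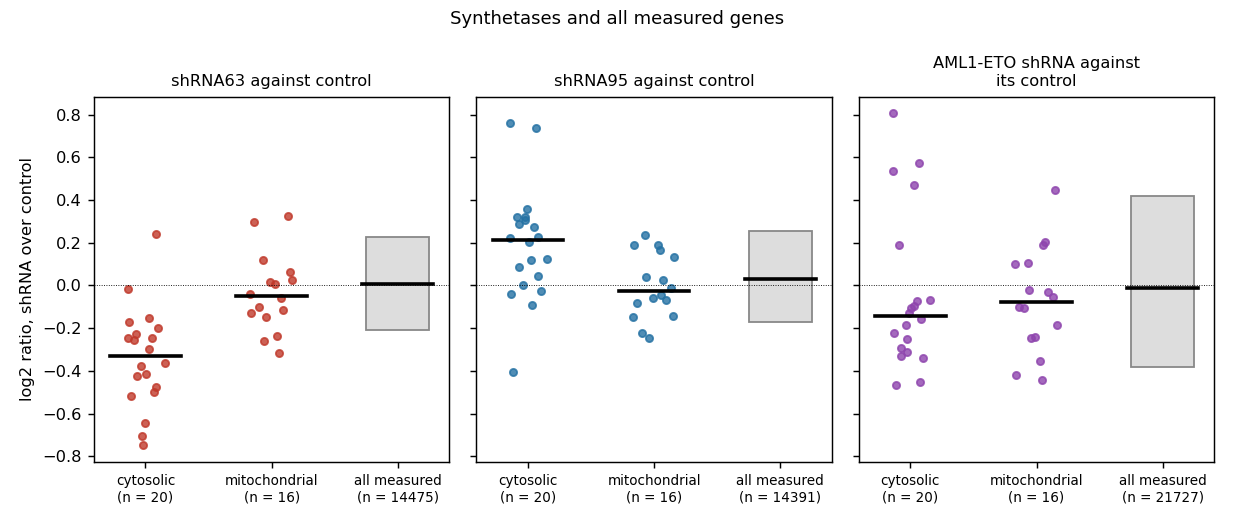
Log2 ratios of the cytosolic and mitochondrial synthetases (1 point per gene, bar at the median) beside the middle 50% of all measured genes (box, bar at the median) in each comparison; the 2 left panels use FPKM + 1 and the right panel the authors' log2 fold change. The cytosolic median is -0.33 with shRNA63 and 0.21 with shRNA95, while the mitochondrial median stays between -0.08 and -0.03 in all 3 panels.

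Within an amino acid, the cytosolic enzyme had the lower ratio in 13 of 17 pairings with shRNA63, with a median of cytosolic minus mitochondrial of -0.31 on the log2 scale. EPRS enters 2 of these pairings, for glutamate and for proline, and FARS2 enters 2, with each subunit of the cytosolic phenylalanine enzyme. The widest gap was histidine at -0.85, from the shared HARS locus, followed by serine, where SARS had a log2 ratio of -0.36 and SARS2 of 0.30. SARS2 also shares its locus with another gene of at least 1 FPKM, so its value can include reads of that gene. With shRNA95 tryptophan had the widest gap at 0.96, and WARS and WARS2 both share their loci in this way too. The cytosolic enzyme had the higher ratio with shRNA95 in 13 of 17, with a median of 0.19. The same control libraries stand under both hairpins, so these counts are not independent of each other.

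**Figure D4:**
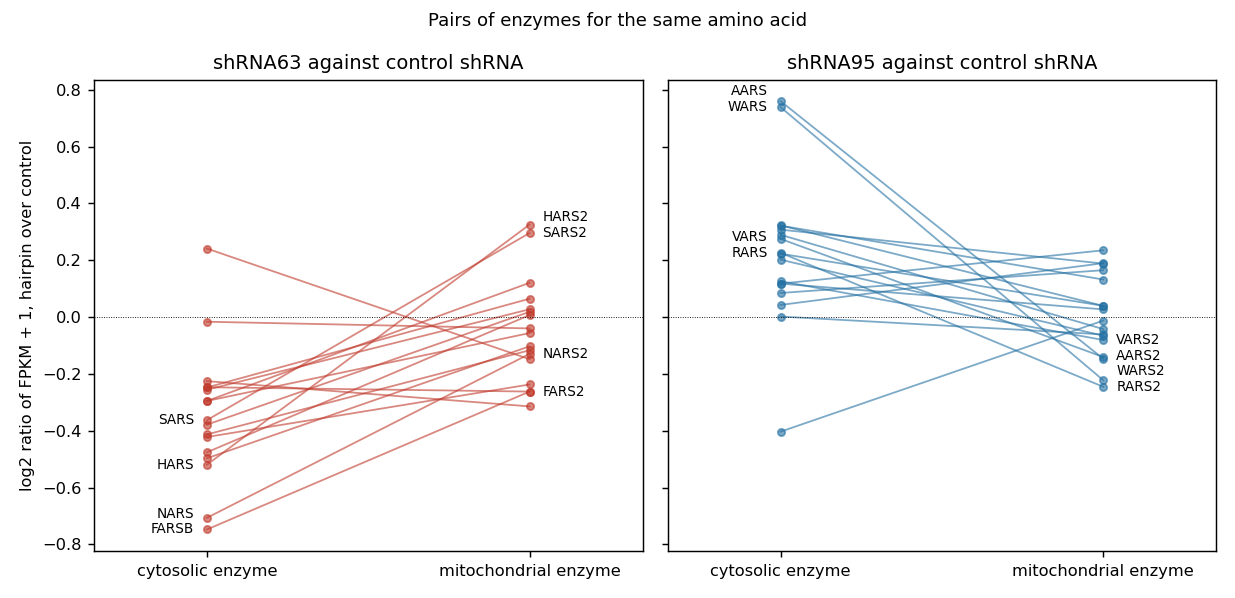
Log2 ratios of FPKM + 1, hairpin over control, of the cytosolic and the mitochondrial enzyme for the same amino acid, joined by a line, with the 4 widest gaps named in each panel. Most lines climb from left to right with shRNA63 (13 of 17) and fall with shRNA95 (13 of 17).

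The 12 cytosolic enzymes outside the multisynthetase complex had medians of -0.39 with shRNA63 and 0.30 with shRNA95, and the 8 enzymes of the complex (DARS, EPRS, IARS, KARS, LARS, MARS, QARS and RARS) had -0.25 with shRNA63 and 0.02 with shRNA95. All 3 calls, over both hairpins, were of enzymes outside the complex, 2 of 12 with shRNA63 and 1 of 12 with shRNA95. Of all tested genes 5.12% were called with shRNA63 and 4.4% with shRNA95, so these few calls do not set the enzymes outside the complex apart. Within the complex MARS stood at 370.1 FPKM with shRNA95 against 321.6 FPKM in controls, the highest synthetase level with that hairpin, and IARS at 194.8 FPKM with shRNA63 against 271.4 FPKM in controls, the lowest percentage of control in the complex with that hairpin at 71.8%. LARS, the leucine enzyme, stood at 170.8 FPKM with shRNA63 against 222.3 FPKM in controls, and at 215.7 FPKM with shRNA95 against 215.4 FPKM in controls. DARS for aspartate, EPRS and KARS stood at 87.0%, 81.3% and 88.7% of control with shRNA63 and at 98.2%, 108.6% and 97.2% with shRNA95. Outside the complex, YARS for tyrosine stood at 181.1 FPKM with shRNA63 against 243.1 FPKM in controls, and at 249.8 FPKM with shRNA95 against 235.5 FPKM in controls. SARS for serine, TARS for threonine, VARS for valine and CARS stood at 77.4%, 85.4%, 84.0% and 83.2% of control with shRNA63 and at 109.3%, 122.4%, 121.3% and 125.9% with shRNA95. None of these was called. The 9 class I enzymes had medians of -0.38 and 0.20 with shRNA63 and shRNA95, and the 10 class II enzymes -0.31 and 0.26, with EPRS, which carries both kinds of catalytic domain, in neither. The non-enzyme scaffold genes of the complex, AIMP1, AIMP2 and EEF1E1, had no call with either hairpin and medians of -0.04 with shRNA63 and -0.03 with shRNA95. The phenylalanine enzyme is built of both FARSA and FARSB. The FARSA mRNA was 7.61 times as abundant as FARSB with shRNA63 and 5.29 times in controls of that table, and 4.92 times with shRNA95 against 5.29 times in its controls.

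The hairpins were set against each other gene by gene: the fold change with shRNA63 minus that with shRNA95, both log2 values of the authors' deposited tables, was divided by its combined error, and the resulting p-values were adjusted over 13870 genes. No synthetase passed an adjusted p-value of 0.05, where 150 genes, or 1.08%, did. At an unadjusted p under 0.05 there were 3 of 36, FARSB, NARS and WARS, all cytosolic, against 5.44% of all genes. FARSB had a difference of -1.10 (error 0.36, 95% interval -1.81 to -0.39), and WARS had the widest at -1.25 (error 0.57). NARS had a difference of -1.02 (error 0.45) and AARS of -0.78 (error 0.44, 95% interval -1.65 to 0.08). All but RARS of the 20 cytosolic genes had a lower log2 fold change with shRNA63 than with shRNA95, with a median difference of -0.51, against -0.08 for the mitochondrial genes and -0.04 for all genes tested. In simulated data with independent errors the test missed most differences about as wide as that of NARS. Differences as small as the cytosolic median were not simulated. That no synthetase passed therefore does not show that the hairpins acted alike. The hairpins share their control libraries, and the test treats their errors as independent. It therefore counts the control error with each hairpin, which makes it conservative. With the control part of the error removed, taken as equal to the hairpin part, FARSB, NARS and WARS passed, while 4.23% of all genes did.

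The ATF4 site of the amino acid response is known by the letters TGATGNAA, and both strands were searched for them in RefSeq promoter windows (GRCh38.p14) from 250 bases before to 50 bases after each transcript start; no other motif was searched, except that TGATGCAA, a part of the same set, was also counted alone. Windows were matched for 16 cytosolic and 14 mitochondrial members. The letters occurred in 7 of the 16 cytosolic genes and in 1 of the 14 mitochondrial genes, against 4.46% of the 27305 genes and 3.62% of the 35116 windows of the table. The narrower TGATGCAA was found in 6 of 16 cytosolic and 0 of 14 mitochondrial genes, against 1.08% of all genes. The 8 sites are shown because these letters were found in several cytosolic genes and in 1 mitochondrial gene, and they are a description of the windows, not bound sites. Each is given 5′ to 3′ on the transcript's strand with the match in capitals, where TTGCATCA and TTTCATCA are matches read from the opposite strand.
AARS, chr16:70289675-70289704, minus strand: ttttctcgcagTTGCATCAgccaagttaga
CARS, chr11:3057407-3057436, minus strand: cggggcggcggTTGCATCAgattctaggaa
GARS, chr7:30594834-30594863, plus strand: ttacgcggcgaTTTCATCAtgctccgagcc
IARS, chr9:92293692-92293721, minus strand: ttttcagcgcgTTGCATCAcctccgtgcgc
MARS, chr12:57488053-57488082, plus strand: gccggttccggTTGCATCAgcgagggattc
NARS, chr18:57621804-57621833, minus strand: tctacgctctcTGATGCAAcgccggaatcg
TARS, chr5:33440956-33440985, plus strand: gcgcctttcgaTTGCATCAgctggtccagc
YARS2, chr12:32756076-32756105, minus strand: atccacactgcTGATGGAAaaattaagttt

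Counted from the transcript start, the match begins at position -187 in AARS, -33 in GARS and -13 in IARS. In CARS, MARS and TARS it begins near the start, at positions -2, -4 and 3, in NARS at position 15, and in YARS2 at position -197. The 7 cytosolic genes with a match had a median log2 ratio of -0.41 with shRNA63, from -0.71 for NARS to -0.02 for AARS, and the 9 with a window but no match had -0.30, from -0.75 for FARSB to 0.24 for RARS. With shRNA95 the medians were 0.31 with a match and 0.13 without, and the ranges overlapped in both tables. FARSB, the other synthetase that fell with shRNA63, and WARS had windows without these letters, which says only that the letters are not in those windows.

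Genes of the amino acid response, to which many cytosolic synthetases belong, had larger changes. Of 23 tested genes of that list 11 were called lower with shRNA63, where 2.83% of all tested genes were called lower, and the median log2 ratio was -0.60. ASNS, which makes asparagine, the substrate of NARS, stood at 75.1 FPKM with shRNA63 against 132.9 FPKM in controls. SLC7A5, a transporter of large neutral amino acids such as phenylalanine, stood at 42.6 FPKM against 74.8 FPKM in controls, and SLC38A2, a transporter of small neutral amino acids, at 100.2 FPKM against 180.6 FPKM in controls. The other called genes were the serine synthesis genes PHGDH and PSAT1, the folate enzyme gene ALDH1L2, CBS of cysteine synthesis, CHAC1 of glutathione breakdown, and the stress response genes DDIT4, TRIB3 and ATF3. ATF4 itself stood at 207.4 FPKM with shRNA63 against 267.0 FPKM in controls and was not called in the authors' deposited table (q = 0.283). With shRNA95 1 of the 23, ATF3, was called, where 4.4% of all tested genes were called and 2.59% were called higher, so the share of calls is near the background. At the authors' unadjusted p under 0.05, 10 of the 23 were higher and 1 was lower, where 1288 of all 18006 tested genes were higher and 918 lower. Of the 23 log2 ratios 19 lay above 0. ATF3 stood at 9.10 FPKM with shRNA95 against 4.99 FPKM in controls, and the list median was 0.33. The difference between hairpins passed for PSAT1, ALDH1L2, PHGDH, CHAC1 and SLC7A5, with differences from -1.86 for CHAC1 to -1.24 for SLC7A5. PSAT1 stood at 58.2 FPKM with shRNA63 against 120.3 FPKM in controls and at 164.5 FPKM with shRNA95 against 116.6 FPKM in controls.

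**Figure D5:**
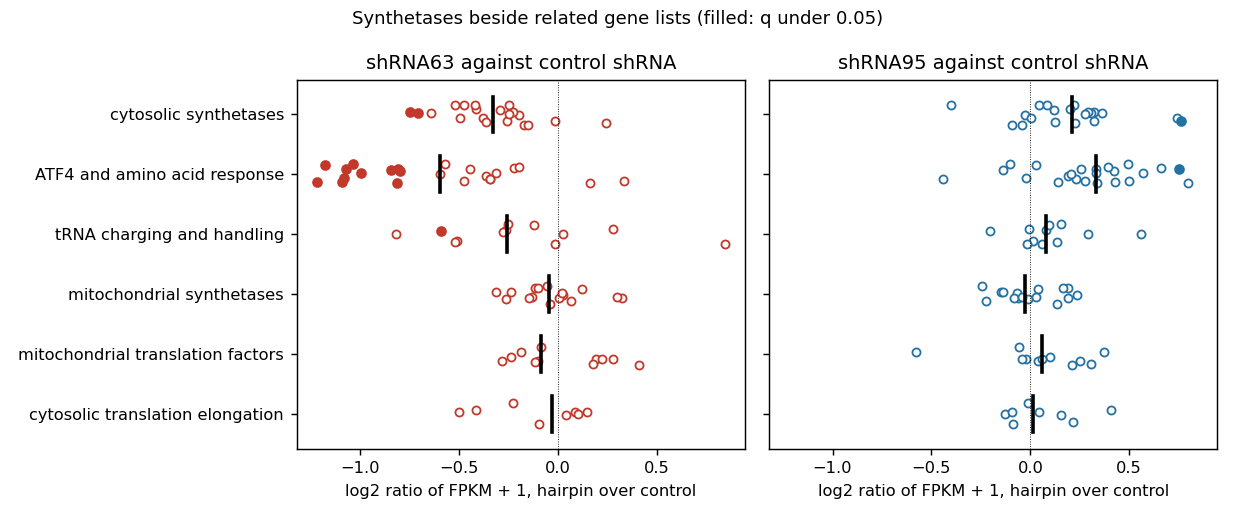
Log2 ratios of FPKM + 1, hairpin over control, for the cytosolic synthetases, related gene lists and the mitochondrial synthetases; 1 point per gene, filled where called, with a bar at the median. The amino acid response genes reach farther from 0 than the synthetases, with a median of -0.60 with shRNA63 and 0.33 with shRNA95. The elongation and mitochondrial translation factor lists have medians near 0. Their single genes run from -0.58 for GFM1 with shRNA95 to 0.41 for MTIF3 with shRNA63.

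Other gene lists of translation differed in how far they lay from 0. Of 12 genes of tRNA charging and handling, 1 was called lower with shRNA63, where 2.83% of all tested genes were called lower. It was DTD1, which removes D-amino acids from mischarged tRNAs, at 35.04 FPKM against 53.4 FPKM in controls. Its log2 fold change was -0.61 (error 0.23, q = 0.0156) in the authors' deposited table. The list had medians of -0.26 with shRNA63, where 9 of 12 lay below 0, and 0.08 with shRNA95. Cytosolic translation elongation genes, a list that also holds ETF1 and GSPT1 of termination and EEF1E1 of the scaffold list, had medians of -0.03 and 0.02 with shRNA63 and shRNA95. Mitochondrial translation factor genes had -0.09 and 0.06. EEF1A1 of the elongation list was listed without a value, so 8 of the 9 genes of that list were measured. No tested gene of either list was called, where 5.12% of all tested genes were called with shRNA63 and 4.4% with shRNA95. At that rate lists this short hold few calls. XPOT, the exporter of tRNAs from the nucleus, stood at 130.3 FPKM with shRNA63 against 131.9 FPKM in controls and at 142.3 FPKM with shRNA95 against 127.8 FPKM in controls.

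In the AML1-ETO comparison no synthetase was called. The authors' deposited table called 0.411% of all tested genes and 0 of 36 synthetases, and at an unadjusted p under 0.05 it held 6.67% of all tested genes and also 0 of 36. The cytosolic genes had a median log2 fold change of -0.14 in the authors' deposited table, with 15 of 20 below 0, the mitochondrial genes -0.08 with 11 of 16 below 0, and all 21727 genes -0.01 with 50.9% below 0. The order of the compartments turned with the mean, which was -0.045 for the cytosolic and -0.072 for the mitochondrial genes. Within an amino acid the cytosolic enzyme was lower in 8 of 17 pairings and higher in 9, with a median of cytosolic minus mitochondrial of 0.03. AARS had the highest log2 fold change at 0.81 (error 0.59) per the authors' deposited table, then came WARS with 0.58 (error 0.69) and FARSA with 0.54 (error 0.50), and HARS was lowest with -0.47 (error 0.81). Each group of this comparison is 1 library, so no replicate stands behind it, and its errors, 0.58 at the median for the cytosolic genes, are wider than the median shift of the cytosolic genes with either JMJD1C hairpin.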

How the data were processed

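RNA was sequenced from 6 Kasumi-1 libraries, grouped by sample title. The submitters' processing notes name TopHat2 2.0.8b, Cuffdiff 2.1.1 and hg19, with no role or order. The deposited tables hold 1 FPKM value per group, a log2 fold change, a test statistic (a score per gene), p-values and q-values, all made by the authors, with columns of a Cuffdiff comparison per the file headers. FPKM was scaled within each table (controls of the shRNA63 table were 1.03 times those of the shRNA95 table at the median), so levels were compared within a table. The 2 FPKM columns of the AML1-ETO table belong to another series and were not used. The labels do not say whether the 2 libraries of a group are separate cultures, and p-values then measure only a spread that may be technical.

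Ratios were computed as log2((FPKM + 1)/(FPKM + 1)) for tested genes with at least 1 FPKM in the higher group, which understates changes of low genes. For the hairpin difference, errors under the 10th percentile were raised to it. The test was tried on simulated data with independent errors, where it made few false calls. It missed most differences about as wide as that of NARS, and differences as small as the cytosolic median were not simulated. The test is two-sided and uses a normal approximation with Benjamini-Hochberg adjustment, as single group values allow no exact test. The authors' starts were raised by 1 to count from 1. VARS is the primary-assembly entry, as 6 copies on alternative sequences were listed at 0. Named genes are all called members, the 3 highest and 3 lowest ratios per compartment and hairpin, and called members of related lists; others were added to show contrasts after values were seen, as were the promoter sites beyond AARS and NARS. Members and lists were chosen with earlier results of these data known. Python 3.11.15, pandas 2.3.3, numpy 2.4.6, scipy 1.17.1 and matplotlib 3.10.9 were used.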

Additional observations from a re-analysis of the deposited data

How the results depend on the processing

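No paired analysis was possible because the tables hold 1 value per group, and for the same reason no library could be left out. The medians of the cytosolic and mitochondrial genes moved by at most 0.0984 on the log2 scale in all 38 combinations of a median and an alternative (mean, centring, without GARS and KARS; for the JMJD1C hairpins also pseudocount, level filter, the authors' fold change and, added after the data had been seen, without the 17 of 36 members whose locus holds another expressed gene). The largest shift was that of the cytosolic genes in the AML1-ETO comparison, with a mean of -0.045 against a median of -0.14. A stricter q-value under 0.01 left 1 call with shRNA63, FARSB, and 0 with shRNA95, while an unadjusted p under 0.05 gave 2 with shRNA95; q under 0.1 and adjustment over genes with at least 1 or 5 FPKM changed no count. For the hairpin difference, errors scaled to the deposited p-value gave 1 synthetase, FARSB, removing the control part gave 3, and the other settings gave 0. Read counts were not used here, so what depth limits is known only through the errors: for YARS2 the error of the log2 fold change was 0.86 with either hairpin, against 0.22 for MARS2.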

Other observations

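Of the 36 synthetases, 17 share their locus in the tables with another gene of at least 1 FPKM, 9 cytosolic and 8 mitochondrial, and with no strand stated their values can include reads of that neighbour. AARS, GARS and WARS are among them, as are the mitochondrial CARS2, EARS2, HARS2, SARS2 and WARS2. MARS, also among them, shares its locus with DDIT3, the stress factor CHOP, which stood at 11.5 FPKM with shRNA63 against 10.1 FPKM in controls. TARSL2, a further threonyl-tRNA synthetase gene outside the member list, stood at 6.14 FPKM with shRNA63 against 7.57 FPKM in controls and at 7.80 FPKM with shRNA95 against 7.33 FPKM in controls, far below TARS. PSTK, a kinase of selenocysteine tRNA synthesis, had the highest ratio of the tRNA charging and handling list with shRNA63, at 7.17 FPKM against 3.56 FPKM in controls, without a call. The TGATGNAA letters were found in 5 of 19 genes of the amino acid response list with a promoter window, and in 0 of 11 mitochondrial translation factor genes.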
